A study of Mus musculus with 8 samples.

Results

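The Klf transcription factors other than Klf1 are described here in sorted haematopoietic stem and progenitor cells of mouse bone marrow. The 9 genes Klf2, Klf3, Klf4, Klf6, Klf7, Klf9, Klf10, Klf12 and Klf13 were chosen by name, and all 9 were among the 18193 genes that a probe set of the array named singly. Flow cytometry gated the cells on low lineage markers, Sca1 and high cKit (LSK cells), and amplified RNA was read on 1 Affymetrix array per mouse. The tested mice, 4 in number, were C57BL/6 and heterozygous for mutant JAK2V617F, the kinase variant of myeloproliferative neoplasms that signals without cytokine. The 4 control mice were wild type C57BL/6. The labels state no age or sex, and do not say how the mutant allele was switched on. All values are deposited log2 intensities, and every difference is Jak2V617F heterozygous minus wild type. The p-values set each difference against the spread between arrays of the same genotype, among these 8 arrays. In RNA of a sorted population, fewer cells of a type and less RNA per cell cannot be told apart.

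Klf proteins share a conserved set of zinc fingers at the carboxyl end, which bind CACCC boxes and GC boxes in DNA, and differ in the amino-terminal part that recruits cofactors. One branch (Klf2, Klf4, Klf6 and Klf7 here) mostly activates transcription with histone acetyltransferases, a further branch (Klf3 and Klf12) represses through the corepressor CtBP, and the last (Klf9, Klf10 and Klf13) binds the corepressor Sin3a. In blood, Klf2 is known for keeping T cells quiescent, Klf4 for monocyte differentiation, and Klf1, the erythroid member, for driving Klf3. Several members, Klf2, Klf4, Klf6 and Klf10 among them, are also early response genes that signals and handling of cells can induce within minutes to hours.

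Promoter sequence is shown for Klf12 and Klf2, whose differences between genotypes were the largest, for Klf4, which varied most between mice after Klf2, and for Klf9, which held the sole match to a Stat motif. Each is the 250 bases before the annotated start in RefSeq (GRCm38.p6), written 5′ to 3′ on the strand of the gene. RefSeq promoters were found for 8 members, and Klf10 was not searched. Capitals mark matches to 4 motifs on either strand, and matches that touch run together. The first is the CACCC box, spelled by its name. The next is the GC box, which was searched as the letters GGGCGG. A Mef2 motif was searched as CTA, any 4 bases and then its reverse complement. A Stat motif was searched as TTC, any 3 bases and then its reverse complement. The Klf12 window lies at chr14:100149797-100150046, minus strand. The Klf2 window lies at chr8:72318812-72319061, plus strand, the Klf4 window at chr4:55532476-55532725, minus strand and the Klf9 window at chr19:23140976-23141225, plus strand.
Klf12 promoter: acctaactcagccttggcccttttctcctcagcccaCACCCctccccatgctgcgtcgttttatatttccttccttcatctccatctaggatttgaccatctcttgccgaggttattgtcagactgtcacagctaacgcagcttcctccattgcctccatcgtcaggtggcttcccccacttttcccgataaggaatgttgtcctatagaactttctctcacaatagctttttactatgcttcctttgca
Klf2 promoter: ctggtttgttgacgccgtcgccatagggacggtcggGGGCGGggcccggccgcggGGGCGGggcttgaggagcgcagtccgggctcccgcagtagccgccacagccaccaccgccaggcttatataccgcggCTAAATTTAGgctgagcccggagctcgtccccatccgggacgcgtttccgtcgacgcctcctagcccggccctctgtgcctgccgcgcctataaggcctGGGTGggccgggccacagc
Klf4 promoter: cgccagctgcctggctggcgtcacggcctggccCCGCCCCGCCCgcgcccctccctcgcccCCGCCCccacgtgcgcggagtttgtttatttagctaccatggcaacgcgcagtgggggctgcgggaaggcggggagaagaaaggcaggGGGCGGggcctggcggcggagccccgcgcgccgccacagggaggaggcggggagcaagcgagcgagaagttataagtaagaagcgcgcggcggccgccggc
Klf9 promoter: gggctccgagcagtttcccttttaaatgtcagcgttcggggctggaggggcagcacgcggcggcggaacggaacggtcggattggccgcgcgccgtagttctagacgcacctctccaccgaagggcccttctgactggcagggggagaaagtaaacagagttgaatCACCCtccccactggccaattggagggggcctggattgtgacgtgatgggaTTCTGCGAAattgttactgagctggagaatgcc
The Klf12 window was 48.0% G and C and held 1 CACCC and 0 GGGCGG matches, while the Klf2 window was 71.2% G and C with 2 GGGCGG matches and 1 CACCC. The Mef2 motif was found in Klf2 alone of the 8 members, starting 118 bases before the start, and in 3.2% of the 32851 promoters of the table. The Stat motif was found in Klf9 alone, starting 33 bases before the start, and in 7.02% of all promoters. CACCC was found in 6 of 8 members, against 52.0% of all promoters, and GGGCGG in 6 of 8, against 32.7%. A match is a description of letters and does not show that a factor binds.

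None of the 9 genes passed the test. In limma with Benjamini-Hochberg adjustment over 18193 genes, 0 of 9 members had an adjusted p under 0.05, against 0.165% of all genes (0.104% higher and 0.0605% lower). At an unadjusted p under 0.05 there was 1 member, Klf12, which was lower, against 5.23% of all genes lower, 11.9% higher and 17.2% in either direction. Differences of at least 0.5 on the log2 scale were found for 2 members, Klf12 and Klf2, against 4.04% of all genes. The members had no shared direction. Their differences were above 0 for 4 and below 0 for 5, with a median of -0.01, against 62.6% of genes above 0 and a median of 0.05 over all genes.

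**Figure D1:**
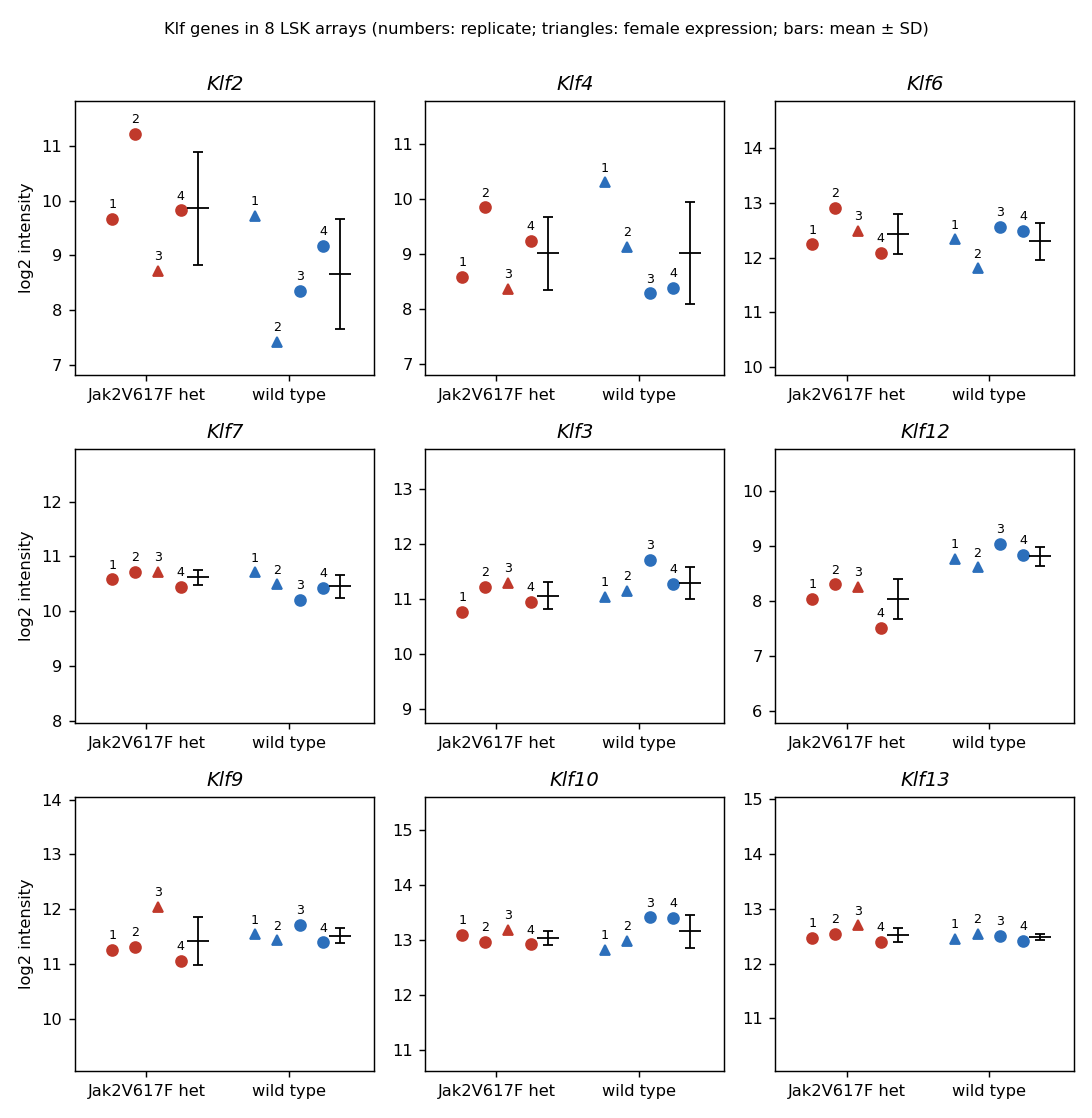
Log2 intensity (y axis) of each Klf gene in the 4 Jak2V617F heterozygous arrays (red, left) and the 4 wild type arrays (blue, right), with the mean and SD beside each group. Every panel spans the same range, and triangles mark arrays of mice with female expression. The 4 mutant values of Klf12 lie below the 4 wild type values, and the groups overlap in the other panels.

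Facts of the arrays bear on several values below. The array medians ran from 7.06 to 7.15. Xist and the Y-linked genes showed female expression in mutant array 3 and in wild type arrays 1 and 2 and male expression in the other 5, so that sex was split unevenly between genotypes (1 of 4 mutant and 2 of 4 wild type mice female). Transcript taken as absent read up to 5.37, the highest level of the Y-linked gene Eif2s3y in a female array, which is used below as the absent level. That level differs by probe set, since Xist read up to 6.54 in male arrays, and values between the levels are close to background on this scale. Kit, a marker of the gate, was high at 12.67 in mutant and 12.65 in wild type arrays. Cd34, a progenitor marker that is not part of the gate, read 13.93 in mutant and 14.04 in wild type arrays. All mutant arrays lay below all wild type arrays for Cd34, as was so for 3.33% of all genes. Of 7 gate and progenitor markers 5 were measured, and Ly6a, which encodes Sca1, was not analysed here. Among B cell markers Ms4a1 and Cd22 lay at or below the absent level in both genotypes, as did Cd8b1 among T cell markers and Cdh5 among endothelial ones.

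Klf12, a repressor first known for acting on the gene of transcription factor AP-2 alpha, was the member with the smallest p. Its level was 8.04, 8.30, 8.26 and 7.51 in mutant arrays 1 to 4, against 8.77, 8.61, 9.04 and 8.84 in wild type arrays 1 to 4. All mutant arrays lay below all wild type arrays, as was so for 3.33% of all genes (10.1% did not overlap in either direction), and mutant array 4 was lowest. The means were 8.03 ± 0.36 in mutant and 8.82 ± 0.18 in wild type arrays (SD, n = 4 each). The difference was -0.79 ± 0.17 (SE), a mutant to wild type ratio of 0.580 with a 95% interval for this gene alone from -1.18 to -0.39, and its limma adjusted p was 0.106. It stood at place 248 of 18193 genes by p.

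The other probe sets of Klf12 above the absent level gave the same direction. Of 3 such probe sets 3 were below 0, and in 2 the groups did not overlap. The brightest probe set has a name in _s_at and may be shared between transcripts of different genes, but 2 further probe sets above the absent level, with names in _at, differed by -0.75 ± 0.18 (SE; limma adjusted p = 0.117 over all probe sets) and by -0.40 ± 0.14 (limma adjusted p = 0.216). The probe set with -0.75 read 7.59, 8.05, 8.19 and 7.35 in mutant arrays and 8.37, 8.43, 8.74 and 8.66 in wild type arrays, so that array 4 was again the lowest mutant. The remaining pair of probe sets lay below the absent level in both genotypes, so they are not counted and their sizes are not given. With all 5 probe sets averaged, those included, Klf12 differed by -0.54 (limma adjusted p = 0.117).

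Klf3, a repressor whose promoter is a target of Klf1 in erythroid cells, also lay lower on average, by less than its spread. Its level was 10.76, 11.21, 11.29 and 10.94 in mutant arrays, against 11.03, 11.14, 11.71 and 11.27 in wild type arrays. The groups overlapped, and wild type array 3 was the highest of the 8. The difference was -0.24 ± 0.17 (SE; limma adjusted p = 0.475), with an interval from -0.62 to 0.14. It was -0.095 without wild type array 3 (limma adjusted p = 0.800) and -0.14 without mutant array 1 (limma adjusted p = 0.708). Of the 7 probe sets of Klf3, 6 were below 0, from -0.40 to -0.09, and the other was at 0.21, with no adjusted p under 0.219. Both members of the CtBP branch thus had differences below 0, and 0 of 2 were called. CtBP itself, encoded by Ctbp1 and Ctbp2, differed by -0.0014 ± 0.062 and -0.04 ± 0.072 (SE), with limma adjusted p of 0.992 and 0.767.

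**Figure D2:**
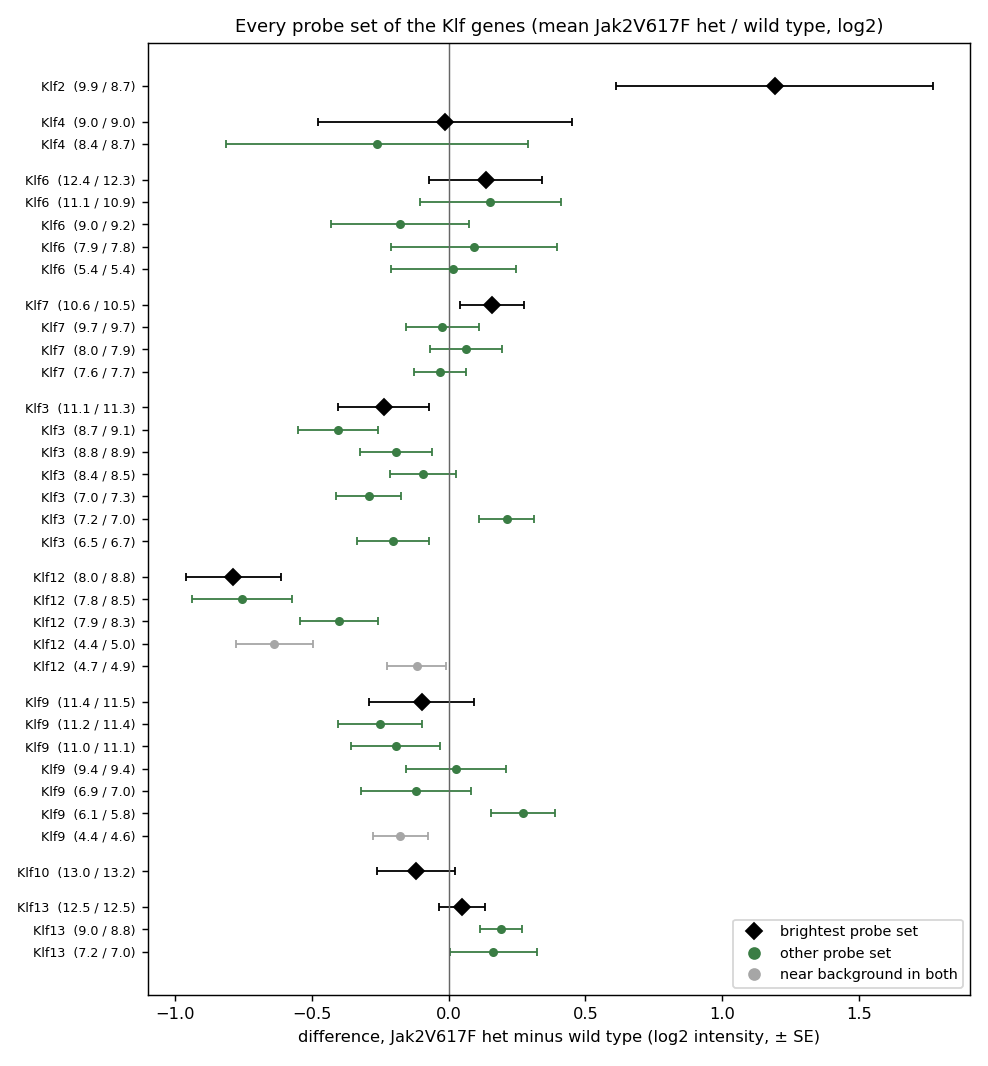
Difference between genotypes (x axis, log2 intensity, Jak2V617F heterozygous minus wild type, with SE) for all 35 probe sets of the 9 genes, with the mutant and wild type mean in brackets. Black diamonds mark the brightest probe set of a gene and grey points those below the absent level in both genotypes. The black and green Klf12 points lie left of 0, Klf2 has 1 probe set far to the right, and the Klf9 points fall on both sides.

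Among the activating members, Klf2 showed the largest difference of all 9 and also the widest spread. Its level was 9.67, 11.22, 8.72 and 9.82 in mutant arrays, against 9.72, 7.42, 8.36 and 9.17 in wild type arrays. Mutant array 2 was the highest and wild type array 2 the lowest, while mutant array 3 lay below wild type arrays 1 and 4. The means were 9.86 ± 1.03 in mutant and 8.67 ± 1.003 in wild type arrays (SD, n = 4 each). The difference of 1.19 ± 0.59 (SE), a ratio of 2.29, had an interval from -0.14 to 2.52 and a limma adjusted p of 0.332. Without mutant array 2 it was 0.74 (limma adjusted p = 0.475) and without wild type array 2 it was 0.78 (limma adjusted p = 0.504), each over 1.5 times smaller. Klf2 had 1 probe set, so no other could be compared.

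Klf4, a factor of monocyte differentiation and of reprogramming to pluripotency, had the next widest spread, and its means lay close together. Its level was 8.58, 9.84, 8.36 and 9.24 in mutant arrays, against 10.30, 9.12, 8.28 and 8.38 in wild type arrays. Each genotype held both high and low arrays, and wild type array 1 was the highest of the 8. The difference was -0.01 ± 0.47 (SE; limma adjusted p = 0.991), with an interval from -1.08 to 1.05, which does not show that the levels were alike. It was 0.41 without wild type array 1. The further probe set of Klf4 differed by -0.26 ± 0.55 (SE).

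Klf6, a widely expressed early response gene that is needed for blood formation in the mouse yolk sac, was bright in all arrays. Its level was 12.24, 12.91, 12.48 and 12.09 in mutant arrays, against 12.33, 11.80, 12.56 and 12.48 in wild type arrays. Mutant array 2 was again the highest and wild type array 2 the lowest. The difference was 0.14 ± 0.21 (SE; limma adjusted p = 0.755), and over its 5 probe sets it ran from -0.18 to 0.15.

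Klf7, known in neurons and for impairing stem cell engraftment when overexpressed in mouse, lay within a narrow range. It read 10.58, 10.72, 10.72 and 10.44 in mutant arrays, against 10.71, 10.49, 10.20 and 10.43 in wild type arrays. The groups overlapped, with a difference of 0.16 ± 0.11 (SE; limma adjusted p = 0.485) and an interval from -0.10 to 0.42. Without wild type array 3 it was 0.074. Its 3 other probe sets differed by -0.03 to 0.06. Among the 4 activating members 3 differences were above 0 and 0 were called.

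None of the 3 Sin3a-binding members was called. Klf9, which glucocorticoid and thyroid hormone induce, read 11.26, 11.32, 12.05 and 11.06 in mutant arrays, against 11.54, 11.43, 11.71 and 11.40 in wild type arrays. Mutant array 3, from a mouse with female expression, was the highest, and the other 3 mutant arrays lay below the wild type arrays. The difference was -0.10 ± 0.19 (SE; limma adjusted p = 0.809) over all arrays and -0.31 without mutant array 3 (limma adjusted p = 0.247). Of its 6 probe sets above the absent level 4 were below 0, and the 2 above 0 were at 0.03 and 0.27.

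Klf10, the Tgf-beta inducible early gene, read 13.08, 12.96, 13.18 and 12.92 in mutant arrays, against 12.82, 12.99, 13.41 and 13.40 in wild type arrays. Wild type arrays 3 and 4 stood above the other 6, and the difference was -0.12 ± 0.14 (SE; limma adjusted p = 0.680). It was -0.033 without wild type array 3 and -0.035 without wild type array 4, but -0.23 without wild type array 1. Klf13, which acts on the chemokine gene Ccl5 in human T cells, read 12.47, 12.54, 12.70 and 12.39 in mutant arrays, against 12.45, 12.54, 12.50 and 12.42 in wild type arrays. All wild type arrays lay within the wider range of the mutant arrays, and mutant array 3 was the highest of all. The difference was 0.05 ± 0.080 (SE; limma adjusted p = 0.771), with an interval from -0.13 to 0.23. A dimmer Klf13 probe set lay higher in all mutant arrays, by 0.19 ± 0.076 (SE; limma adjusted p = 0.251 over all probe sets), and 3 of 3 probe sets were above 0.

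The members differed widely in their spread between mice of 1 genotype. The SD within genotype, pooled over both, was 1.02 for Klf2 and 0.81 for Klf4, against a median of 0.15 over all genes, and was larger than that of 99.7% and 99.5% of all genes. Among genes within 0.5 log2 of its mean level, the share with a smaller SD was 99.6% for Klf2, 98.9% for Klf4, 98.3% for Klf6, 98.2% for Klf10, 97.0% for Klf9 and 93.7% for Klf3. It was 68.3% for Klf12, 64.6% for Klf7 and 47.0% for Klf13.

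**Figure D3:**
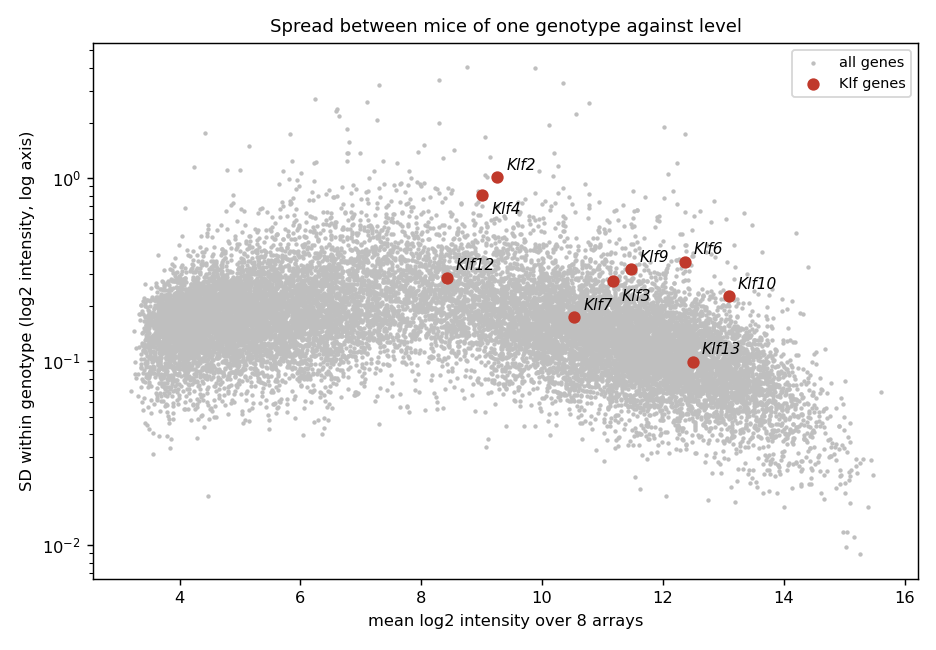
SD within genotype (y axis, log2 intensity on a log axis) against the mean log2 intensity over 8 arrays (x axis) for all 18193 genes (grey) and the 9 Klf genes (red). Klf2 and Klf4 lie near the upper edge of the cloud at SDs of 1.02 and 0.81, and Klf13 lies within it at 0.10.

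Klf2 varied from array to array together with several immediate early genes. By Pearson correlation of deviations from the genotype mean over the 8 arrays, among 9089 genes brighter than the median, the genes most like Klf2 were Zfp513 (0.997), a zinc finger gene, Dusp1 (0.975), a phosphatase that ends Erk and p38 signals, and Jun (0.972), a subunit of AP-1. These are descriptions over arrays that share a genotype split and a normalisation, picked as the highest of many. Jun read 12.70, 13.39, 11.63 and 12.67 in mutant arrays, against 12.70, 10.54, 11.40 and 12.23 in wild type arrays, and differed by 0.88 ± 0.49 (SE; limma adjusted p = 0.380). Dusp1 differed by 0.39 ± 0.35 (SE; limma adjusted p = 0.572). Zfp513 differed by -0.07 (limma adjusted p = 0.716). The measure leaves out the genotype means, so a likeness says nothing of the difference between genotypes.

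The list of 25 immediate early and handling genes had 21 differences above 0 (62.6% of all genes were above 0) with a median of 0.36, against 0.05 over all genes. By limma 0 were called over all genes, and 3 of 25 were higher at an unadjusted p under 0.05, near the 11.9% of all genes. These were Egr2 (1.53 ± 0.54, SE), Junb (0.81 ± 0.30) and Ier2 (0.78 ± 0.33), each with a limma adjusted p from 0.221 to 0.273. Egr2 lay below the absent level in wild type arrays, at 4.87, and read 6.41 in mutant arrays. The mean level of the list ran from 9.99 to 11.33 in mutant arrays and from 9.48 to 10.64 in wild type arrays. As the median deviation from the wild type mean, the list stood at 0.20, 0.86, -0.09 and 0.35 in mutant arrays 1 to 4, against 0.33, -0.61, -0.0008 and 0.28 in wild type arrays. Klf2 had the same order of arrays within each genotype, with deviations of 1.005, 2.55, 0.06 and 1.15 in mutant and 1.05, -1.25, -0.31 and 0.50 in wild type arrays. The part of this list in the Klf2 difference was not tested.

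**Figure D4:**
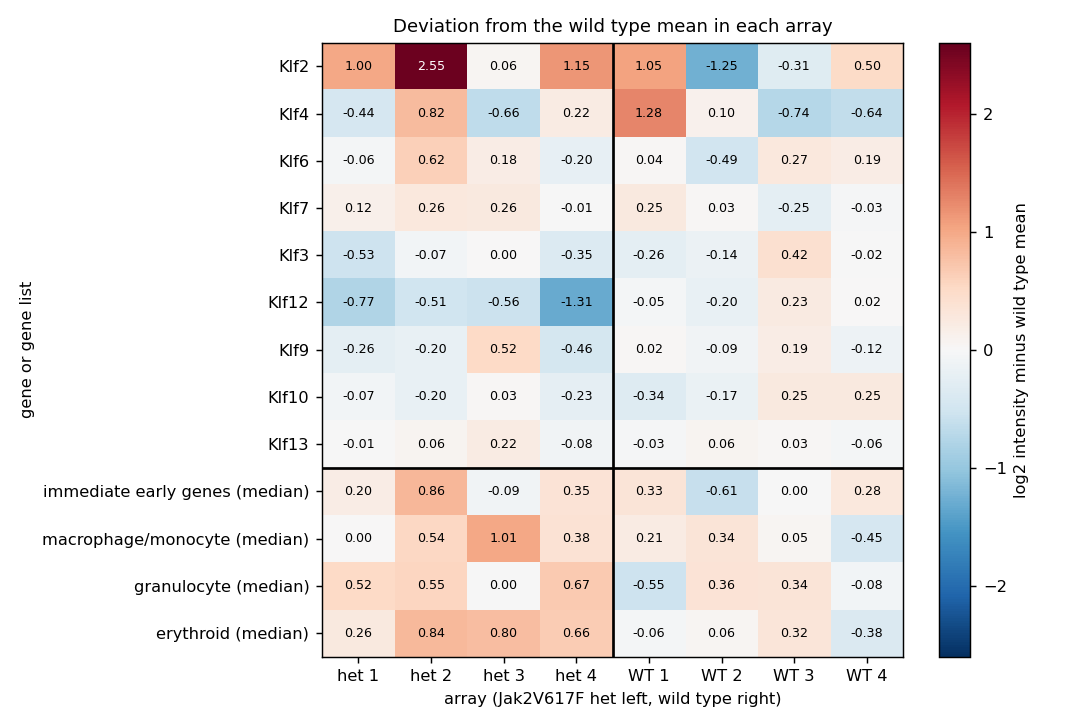
Deviation of each Klf gene from its wild type mean (log2 intensity, colour and printed value) in each array, Jak2V617F heterozygous left and wild type right, with the median deviation of 4 gene lists below. Klf2 and the immediate early genes are highest in mutant array 2 (2.55 and 0.86) and lowest in wild type array 2 (-1.25 and -0.61), and Klf12 is below 0 in every mutant array.

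Klf12 and Klf3 had other nearest genes. Those most like Klf12 by the same measure were Oaz2 (0.981), an inhibitor of polyamine synthesis, Pank1 (0.979), a kinase of coenzyme A synthesis, and Pnpla8 (0.977), a phospholipase. Those most like Klf3 were Papolg (0.984), a poly(A) polymerase, the cell cycle inhibitor gene Cdkn1b (0.977) and Zfp710 (0.973). None of these 6 was called, with limma adjusted p from 0.304 to 0.633. Between members, the 36 correlations of deviations ran from -0.90, between Klf4 and Klf10, to 0.88, between Klf9 and Klf13, and 25 were above 0.

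Sex was unevenly split, so the members were also read among the 5 male arrays, 3 mutant and 2 wild type, a choice made after seeing the data. There Klf12 differed by -0.99 and Klf2 by 1.47, and the groups did not overlap for either. Klf4 stood at 8.58 to 9.84 in the mutant and 8.28 to 8.38 in the wild type males, a difference of 0.89, against -0.01 over all 8 arrays. Klf3 (-0.52), Klf10 (-0.42) and Klf9 (-0.34) lay lower in all mutant males and Klf7 (0.27) higher. In all, 7 of 9 members did not overlap among males, against 38.6% of all genes, and limma on the male arrays called 0 of 9, with adjusted p from 0.169 to 0.979. With sex as a covariate over 8 arrays, Klf12 was at -0.79, Klf2 at 1.002 and Klf4 at 0.093, and 0 of 9 were called. Females, with 1 mutant array, were not tested. Hspa1a and Hspa1b, of the handling list, split along the same arrays as sex. Hspa1b read 9.92 in mutant array 3 and 10.38 and 9.36 in wild type arrays 1 and 2, against 13.00 to 13.75 in the male arrays. Hspa1a read 3.76 to 4.65 in the female and 8.21 to 9.72 in the male arrays. The male subset and the sex covariate therefore cannot tell sex from this difference between arrays, which was not tested.

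No marker of another cell type was called by its brightest probe set, but several lists had most of their differences above 0. Over all genes 62.6% were above 0, and the part of these lists in the Klf values was not tested. Macrophage and monocyte markers were above 0 in 13 of 14 measured genes with a median of 0.54, and their mean level was 8.47 to 9.30 in mutant and 7.97 to 8.67 in wild type arrays. Cd163, Cd68 and Adgre1 had the smallest p (0.65, 0.44 and 0.62). Erythroid markers were above 0 in 9 of 9 with a median of 0.55 and a mean level of 10.02 to 10.85 in mutant and 9.14 to 9.88 in wild type arrays, with Slc4a1 at 2.32, Hbb-b2 at 1.67 and Tfrc at 0.75. Granulocyte markers were above 0 in 7 of 8 with a median of 0.45 and a mean level of 12.03 to 12.69 in mutant and 11.49 to 12.23 in wild type arrays, with Ltf at 1.41, Camp at 0.88 and S100a9 at 0.43. None of these genes lay below 5.37 in both genotypes, though Itgam and Epb42 lay below 6.54 in both. Adgre1 was below 6.54 in wild type arrays, at 6.30, and read 6.92 in mutant arrays. By the brightest probe sets the smallest limma adjusted p was 0.0652. A dimmer probe set of Hbb-b2, with a name in _x_at, passed at 0.90 ± 0.13 (SE; limma adjusted p = 0.0407 over all probe sets). It read 6.77, 6.98, 6.50 and 6.85 in mutant arrays, against 5.81, 5.64, 5.98 and 6.07 in wild type arrays. Its wild type values thus lay below 6.54.

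T and NK cell markers, among which Klf2 is abundant in mature cells, were above 0 in 6 of 8 with a median of 0.18 and a mean level of 7.41 to 7.84 in mutant and 7.50 to 7.67 in wild type arrays. Cd3d (0.52) and Cd8a (0.25) were above 0 and Cd4 (-0.45) below. Cd8a was close to background, below 6.54 in both genotypes (6.34 in mutant and 6.09 in wild type arrays). Cd3d was below 6.54 in wild type arrays, at 6.36. B cell markers had a median of -0.0068 over 6 genes, and a mean level of 7.17 to 7.37 in mutant and 7.10 to 7.29 in wild type arrays. Pax5 was at 0.07 and also close to background, at 6.21 in mutant and 6.14 in wild type arrays. Endothelial markers, among which Klf2 and Klf4 are also abundant, had 5 of 8 above 0, a median of 0.20, and a mean level of 8.16 to 8.55 in mutant and 8.12 to 8.42 in wild type arrays. Emcn, shared with stem cells, was lower at -0.84 and Plvap was at 0.43. The 5 gate and progenitor markers had a median of 0.02, with Slamf1 at 0.72, Cd34 at -0.12 and Flt3 at -0.05. None of these genes was called (limma).

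The rest of the Klf family and the related Sp factors were measured for 14 of 17 genes, and 0 were called (limma). Above 0 were 9 and below 0 were 5, with a median of 0.09. Groups did not overlap for 3, all higher, against 6.82% of all genes higher in this way. These were Sp6 (0.47 ± 0.12, SE; limma adjusted p = 0.139), Klf17 (0.16 ± 0.068, SE; limma adjusted p = 0.284) and Sp5. Sp5 lay below the absent level in both genotypes, so its size is not given, and Sp6 lay close to it at 5.77 in mutant and 5.30 in wild type arrays. Klf14, Klf15, Sp7 and Sp8 were below the absent level in both as well. So were the other probe sets of Klf17, while its brightest read 7.01 in mutant and 6.85 in wild type arrays. Klf1, which drives red cell genes, differed by 0.64 ± 0.32 (SE; limma adjusted p = 0.337), with 9.78, 10.94, 11.30 and 10.79 in mutant arrays, against 10.04, 10.25, 10.47 and 9.50 in wild type arrays.

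No cofactor or upstream regulator was called. Of 17 corepressors, coactivators and ubiquitin ligases of Klf proteins 0 were called (limma), with 7 above 0 and a median of -0.0041. Sap30, a subunit of the Sin3a complex, was at 0.43 ± 0.17 (SE; limma adjusted p = 0.254). The acetyltransferase gene Crebbp was at -0.23 ± 0.099 (SE; limma adjusted p = 0.275). Groups did not overlap for 2 of 17, Sap30 and Fhl3, each higher, against 6.82% of all genes higher in this way. Fhl3, a partner of Klf3, lay below the absent level in both genotypes. Of 11 genes of the Erk5 and Mef2 pathway, the Foxo factors and the glucocorticoid receptor, which act on Klf2, Klf4 or Klf9, 0 were called and 8 were below 0, with a median of -0.07. Erk5 itself (Mapk7) was at 0.30 ± 0.11 (SE; limma adjusted p = 0.232), the upstream kinase gene Map3k2 at -0.25 ± 0.11 and the glucocorticoid receptor gene Nr3c1 at -0.34 ± 0.12 (limma adjusted p = 0.223).

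Genes reported as targets of a member in other cells were measured for 11 of 12, and 0 were called (limma), with 9 above 0, 2 below 0 and a median of 0.11. The endothelial targets of Klf2, Nos3 and Thbd, were at 0.47 ± 0.12 (SE; limma adjusted p = 0.132) and 0.49 ± 0.17 (limma adjusted p = 0.222), with Nos3 near the absent level at 5.96 in mutant and 5.49 in wild type arrays. Cd14, a monocyte receptor that Klf4 activates in human monocytes, had the largest difference of the list and lay the other way, at -0.99 ± 0.42 (SE; limma adjusted p = 0.273), with 6.67, 6.97, 7.30 and 6.89 in mutant arrays, against 8.76, 6.60, 7.87 and 8.58 in wild type arrays. Its groups overlapped through wild type array 2, the lowest of the 8. S1pr1, the target that lets T cells leave the thymus, was at 0.04 ± 0.13 (SE; limma adjusted p = 0.880). Lgals3, which Klf3 represses in mouse, was at 0.72 ± 0.24 (SE; limma adjusted p = 0.207), and read 9.97 ± 0.38 in mutant and 9.25 ± 0.42 in wild type arrays (SD, n = 4 each).

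**Figure D5:**
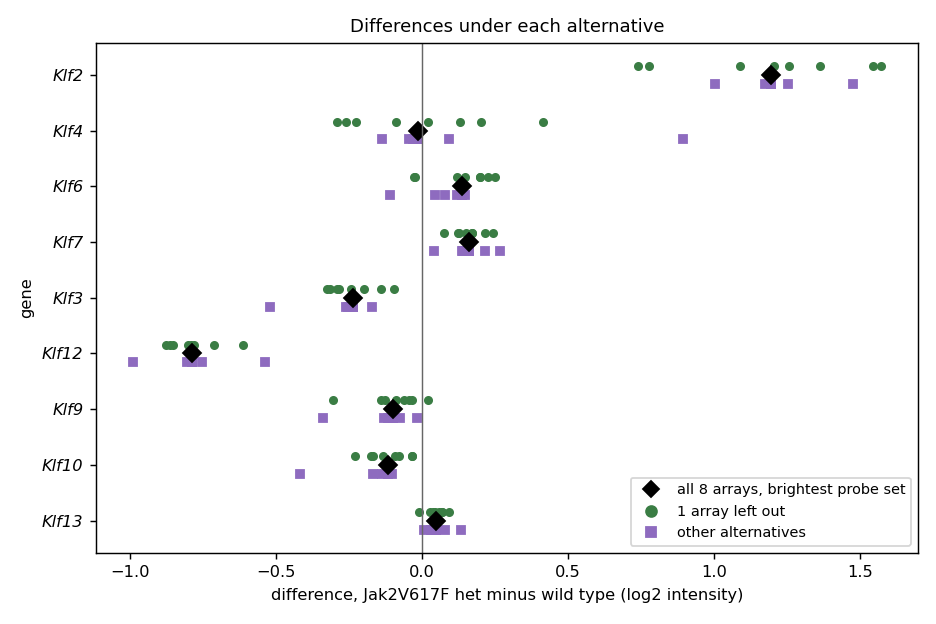
Difference between genotypes (x axis, log2 intensity, Jak2V617F heterozygous minus wild type) of each Klf gene over all 8 arrays (black), with 1 array left out (green) and under the other alternatives (purple). Klf12 stays between -0.99 and -0.54 and Klf2 between 0.74 and 1.57, and Klf4 falls on both sides of 0.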

How the data were processed

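RNA of LSK cells from 8 mice was amplified by a linear protocol, labelled and read on Affymetrix mouse arrays, per the labels' protocols. The deposited log2 intensities were made by the authors with RMA in the affy package under R 2.11.0 (submitters' processing notes). That the scale is log2 was inferred from their range, and the labels name no chip definition. RMA equalises the arrays' distributions, which hides a shift of most transcripts.

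Of 45101 probe sets, 34945 had 1 gene symbol in the platform annotation. Each of 18193 genes was read from its brightest probe set, by the mean of 8 arrays. The labels gave the genotype of 4 arrays each. Differences were tested with limma 3.58.1 (lmFit, eBayes) in R 4.3.3, two-sided and without covariates, with Benjamini-Hochberg adjustment over all genes at 0.05. Further probe sets were fitted together with all singly named ones. Intervals of 95% are for 1 gene and are not adjusted.

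The members, lists and rules were chosen with earlier results of these data known. Named were the 9 members, the 3 genes of each list with the smallest p, and the 3 genes most like each of the 3 members with the smallest p. Klf1, Ctbp1, Ctbp2, S1pr1, Cd14, Itgam, Epb42, Kit, Hspa1a, Hspa1b and genes at the absent level were singled out after their values were seen. So was the dimmer Hbb-b2 probe set. List genes with no singly named probe set were not analysed here. Other settings tried were a block on replicate number, centring on medians, a filter on dim genes, averaged probe sets, shared probe sets removed, every probe set, a robust trended prior, weights per array, a sex covariate and removal of each array. Male arrays alone were added after seeing the data. The model was tested on simulated data. Promoters were taken from RefSeq (GRCm38.p6).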

Additional observations from a re-analysis of the deposited data

Results flagged for a closer look

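The members' 35 probe sets were searched for an array far from the other 3 of its genotype by Dixon's ratio, in 70 groups of 4 arrays. Chance alone marks about 5% of such groups, and 4 were found. The dimmer Klf4 probe set stood far above the other mutant arrays in mutant array 2, at 9.52 against 8.03 to 8.08. A Klf6 probe set was far below the other wild type arrays in wild type array 2, at 8.62. These are the arrays in which Klf2 was highest and lowest. A dim Klf9 probe set was low in wild type array 2, at 5.50, and a bright one was low in wild type array 4, at 11.19. The brightest probe sets of the 9 genes held no such array.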

How the results depend on the processing

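No member was called under any of the 18 alternatives run, and neither was any other Klf or Sp gene. Klf2, Klf3, Klf7, Klf10 and Klf12 kept their direction under every alternative that gave a value, with Klf12 from -0.99 to -0.54 (limma adjusted p from 0.0820 to 0.247) and Klf2 from 0.74 to 1.57 (0.236 to 0.546). With 1 array left out Klf3 ran from -0.32 to -0.095, Klf7 from 0.074 to 0.24 and Klf10 from -0.23 to -0.033. Leaving out dim genes gave no value for Klf4 or Klf12, which were left out with them. Of 160 values for the members, 11 turned direction, but not all could. The replicate block, the dim gene filter, the fit on every probe set and the trended prior leave a member's difference unchanged by design. For Klf2 and Klf10, with 1 probe set each, averaging does so too. Removal of shared probe sets does so for every member but Klf12, the only one whose brightest probe set was removed. A kept direction under those settings therefore shows nothing. Klf4 was 0.093 with sex as a covariate, 0.89 among male arrays and -0.29 to 0.41 with 1 array left out. Klf6 was -0.11 among male arrays and -0.029 to 0.25 with 1 array left out. With 1 array left out Klf9 ran from -0.31 to 0.022 and Klf13 from -0.0090 to 0.093. The cause was not tested.

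Over all genes, 30 were called, 19 higher and 11 lower. The count was 12 with dim genes left out, 49 with probe sets averaged, 60 on all probe sets, 60 with sex in the model, 75 when the prior was trended and robust, and 13 to 40 with 1 array left out. The higher calls were 21 of 40 with median centring, and 38 of the 49 with probe sets averaged. With the replicate number as a block 8 genes were called, 0 of them members. The labels do not say whether the numbers pair mice. Deviations of same-numbered arrays correlated at -0.02, -0.22, -0.06 and 0.10, which cannot show whether they were paired. Of the mutant arrays, array 4 alone was most like the wild type array of its own number. Few arrays limit all of these values, and Klf2 and Klf4 have wide intervals.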
